A study of Homo sapiens with 4 samples.

Results

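The 10 genes described here act in DNA replication: *MCM2*, *MCM3*, *MCM4*, *MCM5*, *MCM6* and *MCM7*, which encode the subunits of the replicative helicase, *TYMS* and *RRM2*, which supply deoxynucleotides, *PRIM1*, a primase subunit, and *PCNA*, the sliding clamp. They were chosen by name, with earlier results of these data known. All 10 were among the 16811 genes with a normalised value in the table. RNA-seq was made from MCF12A, a non-tumorigenic human mammary epithelial line. The 4 libraries were 2 biological replicates of wild-type cells and 2 of cells labelled C1orf132 KO, called edited cells below. In edited cells CRISPR/Cas9 guide pairs were used to remove the p2 promoter of *C1orf132*, a long noncoding RNA gene that hosts miR-29b2 and miR-29c, and edited colonies were grown from single sorted cells. Which colony, and how many colonies, gave the 2 edited libraries is not given in the sources used here. Both groups were grown in the same medium with horse serum, EGF, hydrocortisone, cholera toxin and insulin. *C1orf132* itself was not analysed here, so each library's group rests on its label, and p-values measure the spread between these libraries.

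In late mitosis and G1 the 6 MCM proteins are loaded on replication origins as a hexameric ring, which is inert until kinases and the partners CDC45 and GINS turn it into the helicase that unwinds DNA in S phase. Primase then lays down the RNA primers, PCNA tethers the polymerases to the template, and thymidylate synthase and ribonucleotide reductase keep the deoxynucleotides coming. Many genes of this machinery are known targets of the E2F transcription factors, which the retinoblastoma protein family holds back in resting cells, and their mRNAs are widely used as signs of proliferation. The study compared the cell cycle of edited and wild-type cells by flow cytometry, and the RNAs of the replication machinery are compared here between the same kinds of cells.

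None of the 10 genes passed an adjusted p of 0.05 (limma, Benjamini-Hochberg), a threshold passed by 7.09% of the 9590 genes tested. In 7 of the 10 (*MCM3*, *MCM4*, *MCM5*, *MCM6*, *MCM7*, *TYMS* and *RRM2*) both edited libraries were above both wild-type libraries, as was so for 38.3% of all tested genes. In *PRIM1* both edited libraries were below both wild-type libraries, as in 26.9% of all tested genes, and in *MCM2* and *PCNA* the groups overlapped. *TYMS* had the largest difference, at 2.24 times the wild-type mean, followed by *MCM6* at 1.91 times and *MCM3* at 1.75 times, while *MCM2* was at 1.00 times. At an unadjusted p under 0.05, 6 of the 10 differed, against 32.3% of all tested genes. Of these 6, 5 were higher in edited cells (18.7% of all tested genes) and 1 was lower (13.6%). The 6 became 2 without edited replicate 1 or without wild-type replicate 2, and 4 without either of the other libraries. The median log2 fold change of the 10 genes was 0.41, and that of all tested genes was 0.09. The median of the 10 was 0.21 after quantile normalization and 0.25 without edited replicate 1. In bulk RNA, more or fewer cells in a phase of the cycle and more or less RNA per cell cannot be told apart.

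In the promoters of these genes the letters of the E2F motif were common. RefSeq promoter windows, from 250 bases before to 50 bases after an annotated start (GRCh38.p14), were on hand for 8 of the 10 genes, namely *MCM2*, *MCM3*, *MCM6*, *MCM7*, *TYMS*, *PRIM1*, *PCNA* and *RRM2*. They were searched on both strands for TTTCCCGC, TTTCGCGC, TTTGCCGC and TTTGGCGC. At least 1 match was found in 6 of the 8 genes (75.0%), against 505 of 7008 tested genes with a window (7.21%) and 1164 of 35116 windows in all (3.31%). *RRM2* and *PRIM1* had no match. The letters CCAAT, searched in the same way, were found in 6 of the 8 genes and in 43.3% of the 7008 tested genes. The 30 bases around the E2F-type match nearest to the start are shown for the 6 genes that held one. *PRIM1*, which held none, is shown around its CCAAT letters. CCAAT was also found in *MCM3*, *MCM6*, *MCM7*, *RRM2* and *PCNA*, so it does not set *PRIM1* apart. Each stretch is written 5′ to 3′ on the strand of the gene. E2F-type matches are in capitals, overlapping matches run together, and CCAAT is in capitals for *PRIM1* only.

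MCM2: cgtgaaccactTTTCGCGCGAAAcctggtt
MCM3: agttcggaagtTTTCGCGCcggggtggagt
MCM6: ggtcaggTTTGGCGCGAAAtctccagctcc
MCM7: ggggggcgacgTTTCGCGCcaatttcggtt
TYMS: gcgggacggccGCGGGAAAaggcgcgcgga
PCNA: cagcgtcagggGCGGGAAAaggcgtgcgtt
PRIM1: cgtgctgttcccgCCAATtcctgtggtaat

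On GRCh38.p14 these 30 bases lie at chr3:127598402-127598431 on the plus strand for *MCM2*, chr6:52284728-52284757 on the minus strand for *MCM3*, chr2:135876511-135876540 on the minus strand for *MCM6* and chr7:100101388-100101417 on the minus strand for *MCM7*. Those of *TYMS* lie at chr18:657603-657632 on the plus strand, those of *PCNA* at chr20:5126663-5126692 on the minus strand and those of *PRIM1* at chr12:56752325-56752354 on the minus strand. In *MCM2* and *MCM6* a match on one strand overlapped a match on the other. *MCM6* held 4 matches in its window, *MCM2* and *MCM3* held 2 each, *MCM7* held 2 in the first of its 3 windows, and *TYMS* and *PCNA* held 1 each. *MCM2* and *MCM6*, which both held an overlapping pair, were at 1.00 and 1.91 times the wild-type mean. A link between the matches and the values was not tested. Among genes of other lists with a window, the E2F-type letters were found in 6 of 12 origin licensing, 5 of 10 helicase activation, 5 of 10 polymerase, 4 of 9 Okazaki fragment and fork, and 5 of 11 E2F and pocket protein genes. They were found in 2 of 8 deoxynucleotide synthesis, 1 of 7 clamp loader and RPA, 1 of 7 chromatin assembly and 1 of 13 mitotic genes. Such matches are letters in a window, and binding was not measured.

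The genes themselves span chr3:127598411-127622436 (*MCM2*), chr6:52264015-52284742 (*MCM3*), chr8:47960941-47978160 (*MCM4*), chr22:35400140-35455031 (*MCM5*), chr2:135839626-135876443 (*MCM6*) and chr7:100092728-100101397 (*MCM7*) on the same build. *RRM2* spans chr2:10122568-10211010, *PRIM1* chr12:56731580-56752323 and *PCNA* chr20:5114953-5126622. The span of *MCM7* overlaps that of *AP4M1*, and that of *PCNA* overlaps *PCNA-AS1*, so reads there are uncertain where the counting did not use strand. Other annotated genes overlap the spans of *MCM2* (*LOC107986126*), *PCNA* (*LOC124900464*), *TYMS* (*TYMSOS*) and *RRM2* (*LOC124906144*, *MIR4261* and *LOC105373424*). *AP4M1* was at 51.2 and 72.0 in edited cells against 68.2 and 54.4 in wild type.

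Each value is a signal for 1 gene in 1 library, normalised by the authors and not a read count. Genes carried on 1 mitochondrial RNA had ratios far from the ratio of their lengths. *MT-ND4* is 4.64 times as long as *MT-ND4L*, and its value was 0.927 to 1.18 times as high. For *MT-ATP6* over *MT-ATP8* the ratio was 3.29 by length and 1.59 to 1.88 by value, which lies between equal values and the ratio by length. That the values are scaled for length is thus an assumption that rests on the first pair. Levels of different genes are compared on this scale only. The low values were searched for a step worth 1 read. The best step left 28 to 30 of 207 to 237 values in a library near a whole number, against 4.1 to 4.7 by even spacing. Most values were not near a whole number, so the depth behind each value is taken as unknown. The sum of all values was 1655440 and 1652350 in edited cells against 1604210 and 1444640 in wild type.

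The labels call the source a breast cancer cell line, although MCF12A is a non-tumorigenic line, and the groups differed in cell type markers. Of 11 tested mammary epithelial markers, 6 were lower and 1 was higher in edited cells at an adjusted p under 0.05. The sum of the list was 4911 and 5695 in edited cells against 11290 and 20450 in wild type. Most of that sum was *KRT5* and *KRT17* in every library. *KRT5* was at 3514 and 3056 in edited cells against 4590 and 11910 in wild type and did not pass (adjusted p = 0.146, limma). *KRT17* was at 621 and 1738 against 4947 and 5828 and passed (adjusted p = 0.0491, limma). *CDH1* was at 3.89 and 1.54 in edited cells against 150 and 123 in wild type. Of 12 fibroblast and mesenchymal markers, 5 were analysed and 4 tested, with 1 higher (*VIM*) and 1 lower (*COL1A1*). The sum of the list was 1018 and 5069 in edited cells against 926 and 537 in wild type. Most of the sum in edited replicate 2 was *FN1*, which was at 171 and 3735 in edited cells against 645 and 314 in wild type. *CDH2*, with a mean under 10, was at 4.52 and 8.87 in edited cells against 0.429 and 0.0996 in wild type. Tested without that limit, its log2 fold change was 2.56 (adjusted p = 0.0347, limma). Of 6 leukocyte markers 2 were analysed, *CD68* and *ITGAM*, with *ITGAM* lower, and no endothelial marker was analysed. No analysed marker was at 0 in a library, and the epithelial factor *GRHL2* was nearest to it among those tested, with 0.137 and 0.0460 in edited cells against 26.1 and 26.2 in wild type. The part of these differences in the values of the replication genes was not tested.

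**Figure D1:**
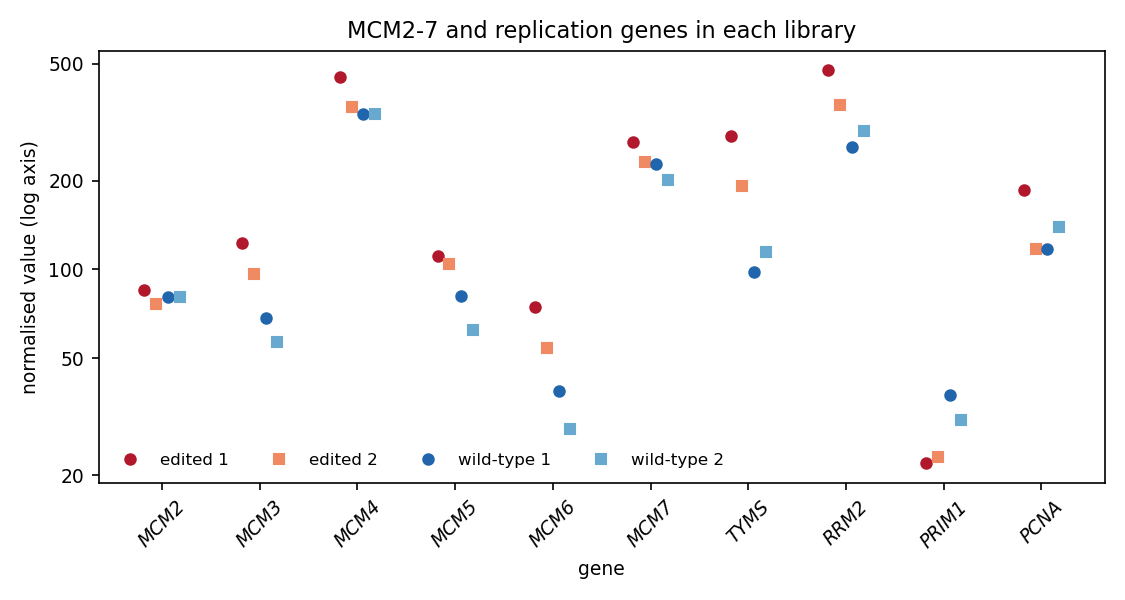
Normalised value (log axis) of each of the 10 genes in each of the 4 libraries, with edited libraries in red and wild-type libraries in blue. In *MCM3*, *MCM5*, *MCM6*, *TYMS* and *RRM2* both red points stand clear of both blue points, and in *PRIM1* both stand below, while the points of *MCM2* lie close together.

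*MCM6* encodes a subunit of the catalytic core of the helicase, with MCM4 and MCM7. Values below are given in the order of replicates 1 and 2. *MCM6* stood at 74.3 and 54.2 in edited cells against 38.5 and 28.7 in wild type. Both edited libraries were therefore above both wild-type libraries, and the gap between the groups was wider than that between the wild-type replicates. The gap was narrower than that between the edited replicates on the scale of the values, and slightly wider on the log2 scale. Its log2 fold change was 0.91 (standard error 0.24, 95% interval from 0.31 to 1.52) and did not pass the threshold (adjusted p = 0.0765, limma). Without edited replicate 2 it did pass (log2 fold change 1.14, adjusted p = 0.0346).

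*MCM3*, whose product ties the ring to the loading machinery at the origin, had values of 123 and 96.5 in edited cells against 68.6 and 56.6 in wild type. The log2 fold change was 0.80 (standard error 0.22, 95% interval from 0.26 to 1.34, adjusted p = 0.0796 from limma). *MCM5*, whose product forms with MCM2 the gate through which DNA enters the ring, had values of 111 and 104 in edited cells against 81.2 and 62.4 in wild type, with a log2 fold change of 0.59 (standard error 0.21, 95% interval from 0.07 to 1.11, adjusted p = 0.123 from limma). For both genes the intervals lay above 0 before adjustment, and neither passed the threshold.

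*MCM4* and *MCM7* had smaller differences. *MCM4* was at 450 and 355 in edited cells against 338 and 337 in wild type, so the groups were kept apart by a gap of edited replicate 2 to the wild type that was smaller than the spread between the edited replicates. Its log2 fold change was 0.24 (95% interval from -0.30 to 0.79, adjusted p = 0.474 from limma), and it was -0.01 after quantile normalization. *MCM7*, whose introns host the miR-106b cluster, was at 270 and 232 in edited cells against 228 and 201 in wild type (log2 fold change 0.23, 95% interval from -0.29 to 0.74, adjusted p = 0.486 from limma), and its log2 fold change was 0.04 after quantile normalization and 0.12 without edited replicate 1. *MCM7* lies on chromosome 7, where the median log2 fold change of 420 tested genes was -0.19, and its value relative to the chromosome was not tested. On the chromosomes of the other 9 genes that median ranged from -0.04 to 0.24.

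*MCM2*, the subunit that also chaperones histones at the fork, had nearly equal group means. Its values were 85.5 and 76.2 in edited cells against 80.9 and 80.7 in wild type, with both wild-type values inside the edited range. The log2 fold change was -0.00 with a 95% interval from -0.45 to 0.45 (adjusted p = 0.996, limma), so a difference of up to 0.45 on the log2 scale in either direction lies within the interval.

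**Figure D2:**
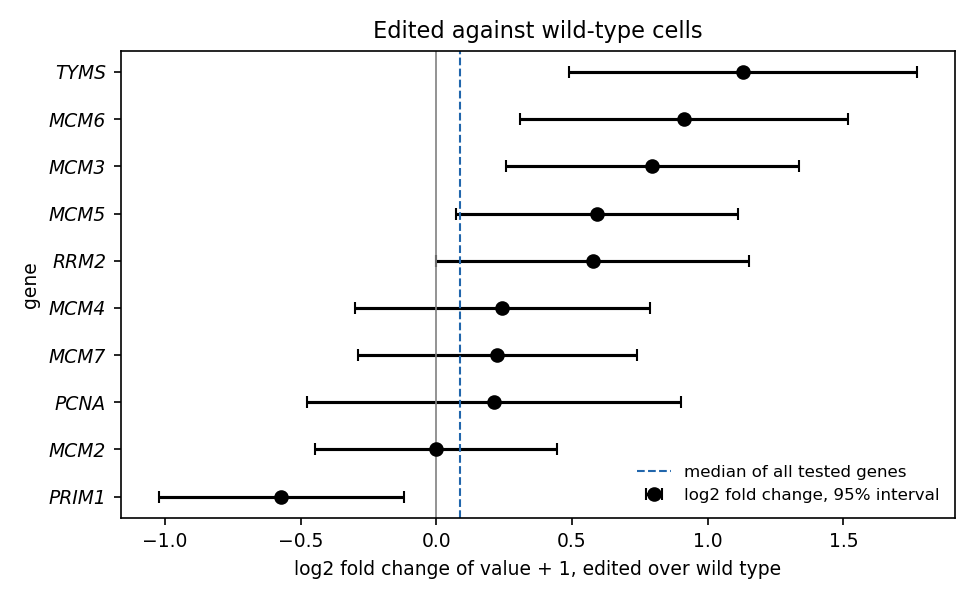
Log2 fold change of value + 1 in edited over wild-type cells for each gene (points) with its 95% interval from limma (bars); the dashed line is the median of all tested genes, 0.09. The intervals of *TYMS*, *MCM6*, *MCM3*, *MCM5* and *RRM2* lie above 0 and that of *PRIM1* below 0 before adjustment for 9590 tests, after which none passed 0.05.

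Since the 6 MCM proteins work as a ring with 1 copy of each, the levels of their RNAs were also summed and set side by side within each library. A scaling factor for a library moves its sum, while shares and ratios within the library do not depend on it. The sum of the 6 was 1114 and 918 in edited cells against 835 and 766 in wild type, a ratio of means of 1.27, which was 1.17 with equal library totals and 1.11 after quantile normalization. With 2 libraries a group the smallest two-sided p of an exact permutation test is 0.333, so this sum was not tested. In these values, taken to be scaled for length, *MCM4* was the highest and *MCM7* the next in all 4 libraries, and *MCM6* was the lowest in all 4. *MCM4* made up 40.4% and 38.6% of the sum in edited cells against 40.5% and 43.9% in wild type, and the ratio of *MCM4* to *MCM7* came to 1.60 ± 0.0951 for edited cells and 1.58 ± 0.133 for wild type (SD, n = 2 each).

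The order of the middle subunits was not the same in the groups. In wild-type cells *MCM2* (80.8 ± 0.125, SD, n = 2), *MCM5* (71.8 ± 13.3) and *MCM3* (62.6 ± 8.48) followed each other, and *MCM5* overlapped both of its neighbours while *MCM2* and *MCM3* did not overlap. In edited cells *MCM3* (110 ± 18.6, SD, n = 2) and *MCM5* (108 ± 4.79) overlapped each other, and both were above *MCM2* (80.8 ± 6.55). The share of *MCM2* in the sum was 7.67% and 8.30% in edited cells against 9.69% and 10.5% in wild type. That of *MCM3* was 11.0% and 10.5% in edited cells against 8.21% and 7.38% in wild type, and that of *MCM6* was 6.67% and 5.90% against 4.61% and 3.74%. *MCM6* stood at 0.869 and 0.711 of the *MCM2* value in edited cells, against 0.476 and 0.355 in wild type. This pair of genes was picked after the values were seen, and its ratio is given as a description.

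**Figure D3:**
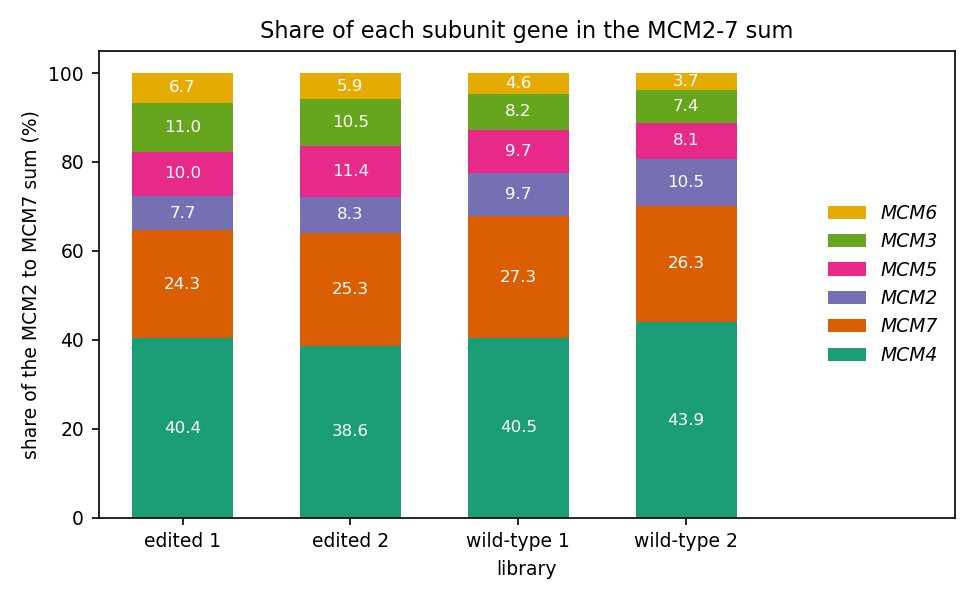
Share of each subunit gene in the sum of *MCM2* to *MCM7* in each library, in percent, from the normalised values, taken to be scaled for length. *MCM4* and *MCM7* take the larger part in all 4 bars, and the shares of *MCM3* and *MCM6* are larger, and that of *MCM2* smaller, in both edited bars than in both wild-type bars.

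*TYMS*, thymidylate synthase, makes the thymidine nucleotide of DNA from the uridine one. Its values were 283 and 191 in edited cells against 98.0 and 114 in wild type. The lower edited value was well above the higher wild-type value. The log2 fold change was 1.13 (standard error 0.26, 95% interval from 0.49 to 1.77), and 3.62% of all tested genes had a higher one. It missed the threshold (adjusted p = 0.0583, limma), and it passed under 4 of 15 other settings, including the robust variance estimate (adjusted p = 0.0465) and the test of genes with a mean of at least 50 only (adjusted p = 0.0413). Without edited replicate 2 the log2 fold change was 1.41 (adjusted p = 0.0194), and without edited replicate 1 it was 0.85 (adjusted p = 0.225). *TYMS* (chr18:657653-673578) overlaps the span of *ENOSF1*, and the sources used here do not say whether reads were counted by strand. *ENOSF1* had a log2 fold change of -0.12 (adjusted p = 0.634, limma).

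*RRM2*, the small subunit of ribonucleotide reductase that is made in S phase, was the highest of the 10 genes in both edited libraries. It was at 474 and 361 in edited cells against 260 and 295 in wild type, which did not overlap (log2 fold change 0.58, standard error 0.23, 95% interval from 0.00 to 1.15, adjusted p = 0.155 from limma). *RRM1*, the large subunit, was at 193 and 177 in edited cells against 214 and 230 in wild type, on the other side (log2 fold change -0.26, adjusted p = 0.382, limma). The ratio of *RRM2* to *RRM1* was 2.45 and 2.04 in edited cells against 1.21 and 1.28 in wild type, so within each library the subunits stood in a higher ratio in edited cells. *RRM2B*, the subunit induced by p53, overlapped between the groups, with 71.5 and 41.1 in edited cells against 42.9 and 58.9 in wild type. RefSeq names 3 pseudogenes of *RRM2*, 4 of *PCNA* and 2 of *TYMS*, and reads shared with them could be split by the counting.

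*PRIM1*, the catalytic subunit of primase, was the only one of the 10 with both edited values below both wild-type values. Its values were 22.0 and 23.1 in edited cells against 37.5 and 30.7 in wild type, with the edited replicates close together. The log2 fold change was -0.57 (standard error 0.18, 95% interval from -1.02 to -0.12, adjusted p = 0.102 from limma). Its partners in the polymerase alpha and primase complex had other values. *PRIM2*, the other primase subunit, was at 16.3 and 13.2 in edited cells against 15.3 and 12.5 in wild type (log2 fold change 0.08, adjusted p = 0.823, limma), and *POLA1*, the polymerase subunit, was at 27.3 and 24.7 against 15.8 and 18.5 (log2 fold change 0.57, adjusted p = 0.103, limma). *PRIM1* was thus 0.807 and 0.936 of the *POLA1* value in edited cells against 2.37 and 1.66 of it in wild type.

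*PCNA* was at 186 and 118 in edited cells against 117 and 139 in wild type. Edited replicate 1 was above the others and edited replicate 2 lay between the wild-type libraries, so the groups overlapped (log2 fold change 0.21, 95% interval from -0.48 to 0.90, adjusted p = 0.630 from limma). Without edited replicate 1 its log2 fold change was -0.12. Edited replicate 1 was above edited replicate 2 in 9 of the 10 genes, with *PRIM1* the exception, against 53.4% of all tested genes. In the wild type, replicate 1 was above replicate 2 in 7 of the 10 genes, against 64.0% of all tested genes.

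**Figure D4:**
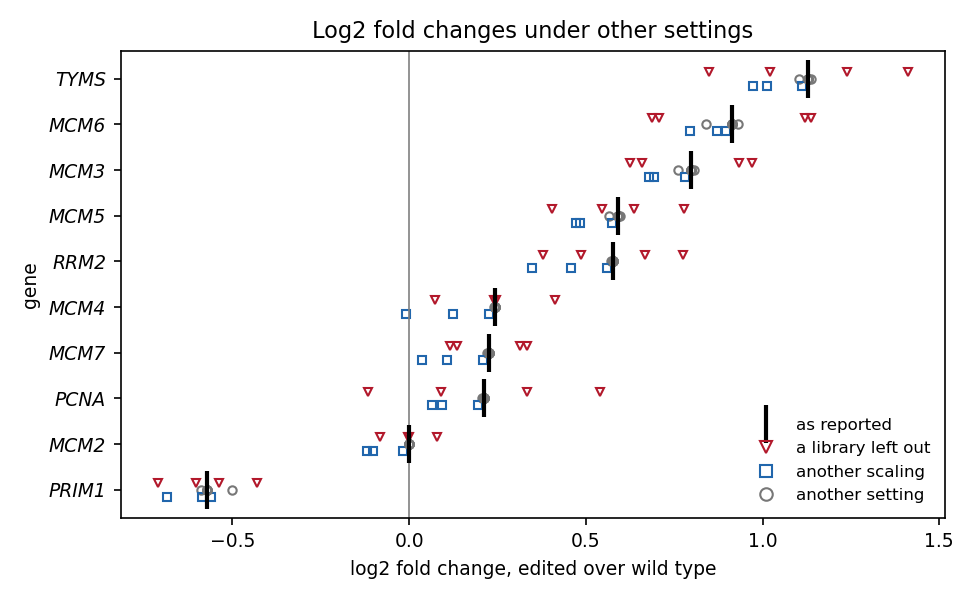
Log2 fold change of each gene as reported (black line) and under other settings: 1 library left out (triangles), another scaling (squares), or another pseudocount, filter, block or variance estimate (circles). The order of the genes is largely kept, the triangles spread more widely than the circles, and points of *MCM2*, *MCM4* and *PCNA* fall on both sides of 0.

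The rest of the replication machinery was read from lists by role. Of 87 tested genes in 9 lists that hold none of the 10 genes (104 genes in all), 1 passed an adjusted p of 0.05, which was higher in edited cells, and 0 were lower (limma). At an unadjusted p under 0.05, 10 were higher and 5 lower, and the median log2 fold change of the 87 was 0.11. Over all tested genes 7.09% passed the adjusted threshold, and 18.7% were higher and 13.6% lower at the unadjusted one, so the lists had smaller shares than all tested genes. The gene that passed was *UHRF1*, which reads hemimethylated DNA behind the fork. It is 1 of 6 tested genes of replication-coupled chromatin assembly, whose median log2 fold change was 0.34. It was at 23.3 and 22.5 in edited cells against 12.0 and 11.0 in wild type (log2 fold change 0.93, standard error 0.19, adjusted p = 0.0469 from limma). It passed under 7 of 14 other settings, and with any 1 library left out its adjusted p was over 0.05 (0.144 and 0.0680 without edited replicates 1 and 2, 0.109 and 0.216 without wild-type replicates 1 and 2) while the log2 fold change stayed from 0.88 to 0.99.

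Among genes of origin licensing, which load the MCM ring, 0 of 10 tested passed, and 6 had both edited values above both wild-type values (38.3% of all tested genes). Their median log2 fold change was 0.26. *CDC6*, a loading factor, was at 31.2 and 26.0 in edited cells against 22.1 and 23.0 in wild type (log2 fold change 0.32, adjusted p = 0.266, limma). *CDT1*, the factor that brings the ring to the origin, overlapped between the groups, with 44.7 and 66.2 in edited cells against 102 and 58.1 in wild type. *ORC1*, the largest subunit of the origin recognition complex, was at 7.79 and 8.90 against 13.6 and 11.6 (log2 fold change -0.54, adjusted p = 0.185, limma). *GMNN*, the inhibitor of CDT1, had a log2 fold change of 0.28 (adjusted p = 0.427, limma).

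Among genes that turn the loaded ring into an active helicase, 0 of 8 tested passed, with a median log2 fold change of 0.16. *CDC45*, which rides with the ring, was at 55.0 and 55.7 in edited cells against 38.1 and 44.0 in wild type, without overlap (log2 fold change 0.43, adjusted p = 0.158, limma). *MCM10*, another activation factor, had a mean under 10 and was tested without that limit (7.05 and 5.54 against 4.61 and 5.00, log2 fold change 0.32, adjusted p = 0.396 from limma). For the replicative polymerases 0 of 11 passed (median 0.13). For the clamp loaders and the single-strand binding protein RPA, 0 of 10 passed (median -0.10). In 4 of these both edited values were below both wild-type values, against 26.9% of all tested genes. In 0 both were above, against 38.3%. *RFC4* of the clamp loader was at 117 and 97.5 in edited cells against 128 and 104 in wild type.

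In the list of Okazaki fragment maturation and fork protection, 0 of 9 passed (median 0.15). *FEN1*, the nuclease that trims the flaps of lagging-strand fragments, was at 90.5 and 71.2 in edited cells against 45.8 and 52.6 in wild type, without overlap (log2 fold change 0.70, adjusted p = 0.0876 from limma). *PCLAF*, a PCNA-binding protein, overlapped (log2 fold change 0.15, adjusted p = 0.635, limma).

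In deoxynucleotide synthesis 0 of 9 tested genes passed, with log2 fold changes from -0.40 to 1.11 and a median of 0.11. *TK1*, which salvages thymidine, was at 95.9 and 83.5 in edited cells against 118 and 119 in wild type (log2 fold change -0.40, adjusted p = 0.202, limma). The value of *TYMS* was 2.95 and 2.29 times that of *TK1* in edited cells against 0.829 and 0.964 times in wild type. *DTYMK*, the next kinase after *TYMS* and *TK1*, was named after its values were seen, and was at 97.5 and 66.7 in edited cells against 46.0 and 36.6 in wild type (log2 fold change 0.96, adjusted p = 0.0738, limma).

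**Figure D5:**
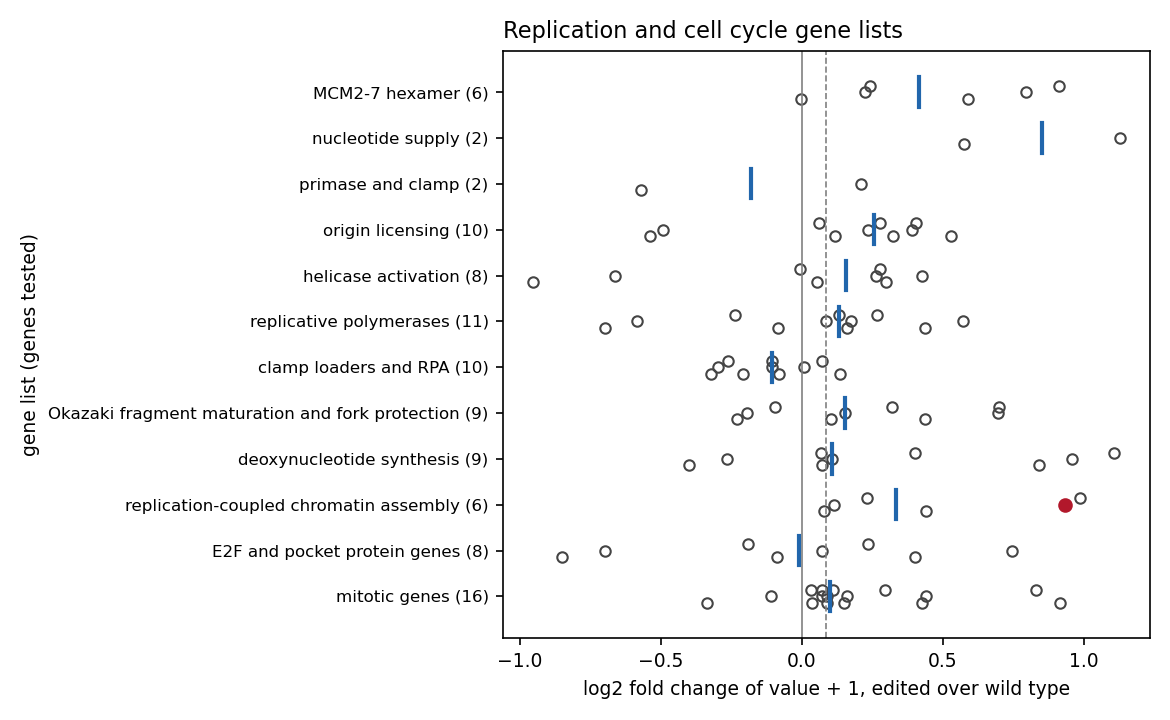
Log2 fold change of value + 1 in edited over wild-type cells for each tested gene (circles) by list, with the number tested in brackets and the median of each list as a blue line; the dashed line is the median of all tested genes. The filled circle is *UHRF1*, which alone passed an adjusted p of 0.05, and the lists reach to both sides of 0 except the list of nucleotide supply (*TYMS* and *RRM2*) and the chromatin assembly list.

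In the E2F and pocket protein list 0 of 8 tested passed (median -0.01). *E2F1*, an activating E2F, had a mean under 10 and was tested without that limit. It stood at 12.6 and 12.6 in edited cells against 6.53 and 3.17 in wild type (log2 fold change 1.28, standard error 0.33, adjusted p = 0.0824 from limma). *E2F8*, a repressing E2F, also under 10, was at 2.22 and 2.57 in edited cells against 4.62 and 6.14 in wild type (log2 fold change -0.90, adjusted p = 0.0907, limma). *RB1*, the retinoblastoma gene, was at 40.9 and 48.6 in edited cells against 67.3 and 78.9 in wild type (log2 fold change -0.70, adjusted p = 0.0809, limma). In these 3 genes the groups did not overlap and none passed the threshold. Over all tested genes both edited values were above in 38.3% and below in 26.9%. Of the 8 tested genes of the list, 3 had both edited values above, 3 had both below and 2 overlapped. Their log2 fold changes ran from -0.85 (*RBL2*) to 0.75 (*E2F4*).

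Mitotic genes, compared as the other main set of cell cycle RNAs, had 0 of 16 passing and a median log2 fold change of 0.10. In 12 of the 16 the groups overlapped, and they overlapped in 2 of the 10 replication genes. Over all tested genes both edited values were above in 38.3% and below in 26.9%, and the rest overlapped. No test of the difference between the sets is given. *MKI67*, the gene of the Ki-67 proliferation antigen, was at 138 and 121 in edited cells against 101 and 145 in wild type, and *TOP2A*, topoisomerase II alpha, was at 164 and 171 against 182 and 179 (log2 fold change -0.11, adjusted p = 0.719, limma). *CDK1*, the mitotic kinase, was at 290 and 252 against 359 and 323 (log2 fold change -0.33, adjusted p = 0.305, limma). Both edited values were below both wild-type values in 2 of the 16, *TOP2A* and *CDK1*, and above in 2, *CCNB1* and *TPX2*. *CCNB1* was at 685 and 437 in edited cells against 389 and 215 in wild type (log2 fold change 0.92, adjusted p = 0.159, limma). *TPX2* was at 96.0 and 81.7 against 79.7 and 65.0 (log2 fold change 0.30, adjusted p = 0.357, limma).

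The 5 genes outside these lists whose profile over the 4 libraries was nearest to the mean centred profile of *MCM2* to *MCM7* were *SEC61B*, *PSMG4*, *NUP88*, *ORAOV1* and *RBM42*, at root mean square distances of 0.0115 to 0.0176 on the log2 scale. *SEC61B*, a subunit of the protein channel of the endoplasmic reticulum, was at 292 and 247 in edited cells against 208 and 180 in wild type. With 4 libraries such a profile is common: 1582 of 9493 genes lay nearer to it than the median distance of the MCM genes themselves (0.152).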

How the data were processed

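Poly(A)-selected RNA of 4 MCF12A libraries, 2 wild-type and 2 edited, was sequenced with single-end reads. The authors deposited 1 table of normalised values, an expression signal by gene symbol with 1 column per library. Per the labels, HISAT2, Salmon and the build hg38 were used, with no versions, and the normalization and annotation are not given in the sources used here. Since the values are not counts, count models were not used.

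The edited group was set against the wild type by the limma package (version 3.58.1, R version 4.3.3, lmFit and then eBayes with a variance trend) on log2(value + 1), over the 9590 of 16811 genes with a mean of at least 10, with no block for the replicate number. P-values were adjusted by Benjamini-Hochberg over all tested genes and called at 0.05. All 10 genes passed the filter (lowest mean 28.3). The pseudocount shrinks the fold changes of genes with low values. Intervals are 95% intervals of the moderated coefficient. A step worth 1 read was sought in low values of 1022 genes with a single transcript, as the step that left most values within 0.01 of a whole number. At the best step 28 to 30 of 207 to 237 values in a library did so, against 4.1 to 4.7 by even spacing. The step was picked to raise that number and most values lay off it, so reads were not recovered and no depth is given.

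Genes were named by a rule: the 10 genes, genes of the lists past the threshold, 21 fixed genes of the lists (1 of them is not reported here) and the 5 nearest profiles. *DTYMK*, *CCNB1*, *TPX2*, *RBL2*, *E2F4* and the ratios between genes were chosen after their values were seen. Cell type markers and overlapping genes are named where they stand beside a result. The 10 genes and the lists were chosen with earlier results of these data known. Positions, promoter windows and overlaps came from RefSeq on GRCh38.p14, which 8478 of the tested genes (88.4%) matched by symbol. Other settings were a pseudocount of 0.1 or 5, no filter or a mean of at least 50, 3 scalings, the replicate block, 2 variance estimates, a threshold of 0.001 and each library left out. A crossed block and all settings for *UHRF1* were added after seeing the data. Python 3.11.15, numpy 2.4.6, pandas 2.3.3 and matplotlib 3.10.9 were used.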

Additional observations from a re-analysis of the deposited data

How the results depend on the processing

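None of the 10 genes passed an adjusted p of 0.05 as reported (limma), with 6 at an unadjusted p under 0.05 (2 to 6 under other settings). The count was 1 when only genes with a mean of at least 50 were tested (8 of the 10), 1 with the robust variance estimate and 1 with the crossed block, and it was *TYMS* each time. It ranged from 0 to 2 with each library left out, the 2 being *TYMS* and *MCM6* without edited replicate 2. Over all genes 680 passed. It was 419 with a mean of at least 50, 133 with the replicate block and 1 at a threshold of 0.001, and it ranged from 4 (without wild-type replicate 2) to 1431 (without edited replicate 2) with each library left out, where the lone library is taken to vary like the other group. The same-numbered libraries share only a number, and their deviations correlated at -0.14 over genes. None of the 10 genes passed with the replicate block, and the crossed pairing gave 1002 genes in all.

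The median log2 fold change of the 10 genes, 0.41, was 0.21 after quantile normalization and ranged from 0.25 to 0.59 with each library left out. The MCM ratio of 1.27 was 1.11 after quantile normalization. Equal totals moved the median of all genes from 0.09 to -0.03, and that of the 10 genes to 0.29. The sign of *MCM4* turned after quantile normalization (-0.0086). That of *PCNA* turned without edited replicate 1 (-0.12, up to 0.54 without edited replicate 2). *MCM2*, whose value was -0.00, ranged from -0.0832 to 0.0802 with each library left out and was 2.57e-05 without wild-type replicate 1. In each of these the cause was not tested. With 2 libraries a group, the intervals of the 10 genes reached 0.45 or more to either side on the log2 scale.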
